A study of Homo sapiens with 9 samples.

Results

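The core of the Hippo pathway was followed here at the level of RNA in 10 genes, which were the MST kinases STK3 (MST2) and STK4 (MST1), their scaffold SAV1, the LATS kinases LATS1 and LATS2, the LATS co-activators MOB1A and MOB1B, and the upstream activators NF2 (merlin), WWC1 (KIBRA) and FRMD6. They were taken by name as the MST and LATS kinases with their scaffolds and activators, by a rule that uses no measured value but was written with earlier results of these data known. All 10 were found among the 60664 genes listed in the count tables, and all 10 had enough reads to be among the 18264 genes that were tested.

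In the Hippo pathway, MST kinases bound to SAV1 phosphorylate and activate LATS kinases and MOB1 proteins, and active LATS phosphorylates the transcriptional co-activators YAP and TAZ, which are then held in the cytoplasm or degraded. When LATS is inactive, YAP and TAZ enter the nucleus and act through TEAD transcription factors, and LATS2 is itself known as a gene that YAP can induce. NF2, WWC1 and FRMD6 act at the cell cortex and help to bring LATS and MST to the membrane, and the pathway is known to respond to cell shape, tension and density. The kinases are controlled mainly by phosphorylation, which RNA counts do not measure.

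MDA-MB-231 is an established human line of triple-negative breast cancer cells, known to carry an inactivating mutation of NF2, which gene counts cannot show. The 9 samples fell into 3 groups of 3, all taken on day 6. Scramble control (SC) cells were kept in medium of 0.77 cP, the baseline viscosity, or in medium of 8 cP, and shTRPV4 cells were kept at 8 cP. The SC cells carried a non-targeting hairpin and the shTRPV4 cells a hairpin against TRPV4, a calcium-permeable cation channel, both delivered by lentivirus as stable constructs, and viscosity was raised with methylcellulose. No shTRPV4 cells at 0.77 cP were analysed here, so the effect of the hairpin at baseline viscosity is unknown, and shTRPV4 samples differ from SC at 0.77 cP in both hairpin and viscosity, which cannot be told apart. The first and second comparisons (SC at 8 cP against SC at 0.77 cP, and shTRPV4 against SC at 8 cP) share the SC samples at 8 cP, so a chance high or low value in these samples enters both with opposite sign. It was not stated whether the 3 samples of a group came from separate cultures, and p-values then measure only the spread between these samples.

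The samples held between 64571681 and 103518036 counts. TRPV4 gave 40, 28 and 54 counts with SC at 0.77 cP, 64, 45 and 24 with SC at 8 cP, and 7, 1 and 13 in the shTRPV4 samples, so every shTRPV4 sample was lower than every SC sample (log2 fold change -2.51 against SC at 8 cP, standard error 0.49, edgeR adjusted p = 0.00219). TRPV4 was therefore a gene of few reads in this line even with the scramble hairpin. The mesenchymal markers VIM, CD44 and AXL were between 754 and 1458 CPM (counts scaled to libraries of equal size) in the 9 samples. The hormone receptors ESR1 and PGR and the epithelial cadherin CDH1 did not exceed 0.133 CPM, while EPCAM, an epithelial adhesion gene, was present at 16.9 to 19.4 CPM. Of 8 markers of leukocytes, fibroblasts and endothelium, CD3E, DCN, CDH5 and PTPRC did not exceed 0.176 CPM, and CD14, COL1A1, PDGFRB and PECAM1 lay between 1.98 and 6.89 CPM. The sum of these 8 markers was 21.2 to 25.5 CPM in SC samples at 0.77 cP, 15.4 to 17.3 CPM in SC samples at 8 cP and 14.5 to 16.4 CPM in shTRPV4 samples, so it was highest at 0.77 cP, and its part in the results was not tested. In bulk RNA, fewer cells that express a gene and less RNA per cell cannot be told apart.

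The 3 pairs of paralogs among the 10 genes are similar in sequence, so the stretches that they share were measured. Over the coding sequence of the main transcript in GENCODE 44, MOB1A and MOB1B were 79.7% identical, STK3 and STK4 76.2% and LATS1 and LATS2 64.3%. The longest run without a mismatch was 23 bases for the MST pair, 20 for the LATS pair and 17 for the MOB1 pair, and 0 bases lay in a stretch of 100 identical bases, the length of a read. The longest shared runs of the LATS and MOB1 pairs are shown, in capitals with 20 flanking coding bases in lower case, as the stretches in which these paralogs cannot be told apart by sequence. The LATS run lies in exon 5 of both genes (GRCh38, chr6:149680351-149680370 for LATS1 and chr13:20983700-20983719 for LATS2, both on the minus strand). The MOB1 run crosses from exon 2 to exon 3 in both genes, with its last 13 bases in exon 3 (chr2:74167095-74167107, minus strand, for MOB1A and chr4:70969931-70969943, plus strand, for MOB1B).
LATS1: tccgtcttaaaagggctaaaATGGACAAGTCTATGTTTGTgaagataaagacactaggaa
LATS2: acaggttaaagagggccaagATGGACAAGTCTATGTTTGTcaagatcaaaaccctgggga
MOB1A: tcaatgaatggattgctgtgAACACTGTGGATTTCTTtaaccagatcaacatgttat
MOB1B: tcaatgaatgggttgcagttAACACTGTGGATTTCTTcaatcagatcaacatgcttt

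Mismatches stand on both sides of the capitals in each pair, within the flank shown. A read of 100 bases over these runs reaches past at least 1 of the flanks shown, so no read of this length from the coding sequence could match both paralogs without a mismatch.

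A promoter is shown for LATS2, since it was the 1 member called lower in any comparison and is known as a YAP-induced gene. Promoters of 9 of the 10 genes were matched in RefSeq (GRCh38.p14), each from 250 bases before to 50 bases after the start of transcription. Letters GGAATG on either strand, the core of the TEAD motif, occurred in 1 of the 9, that of LATS2, against 14% of 27305 promoters of the same length. They lie from base 10 to base 15 after the start on the strand of the gene and are set in capitals.
LATS2, chr13:21061537-21061836, minus strand: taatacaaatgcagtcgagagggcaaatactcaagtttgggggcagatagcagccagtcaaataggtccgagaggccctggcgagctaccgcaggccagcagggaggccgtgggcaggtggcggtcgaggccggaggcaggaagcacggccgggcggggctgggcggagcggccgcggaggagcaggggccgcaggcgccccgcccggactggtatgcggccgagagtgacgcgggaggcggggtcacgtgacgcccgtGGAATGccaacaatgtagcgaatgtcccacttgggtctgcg

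Of other motifs searched on both strands, the GC box GGGCGG occurred in 5 of the 9 promoters (STK4, LATS2, MOB1B, NF2 and WWC1, against 44.6% of all promoters), the E-box CACGTG in those of STK4 and LATS2 (7.43% of all), and the ETS motif CCGGAAG in that of STK4 (10.7% of all). The AP-1 motif TGACTCA and the CRE motif TGACGTCA, found in 4.92% and 1.98% of all promoters, were in none of the 9. A match describes the letters of the window and is no measurement of binding.

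Per length of the main transcript, FRMD6 was the most abundant of the 10 RNAs and NF2 the least. In FPKM, which is CPM divided by the length in kilobases, the mean over the 9 samples was 43.9 ± 3.95 for FRMD6 (SD, n = 9), 30.1 ± 2.15 for MOB1A, 26.3 ± 2.19 for SAV1, 15.1 ± 1.48 for STK4, 13.4 ± 0.644 for STK3, 12.4 ± 0.875 for LATS2, 9.18 ± 1.35 for WWC1, 4.85 ± 0.404 for MOB1B, 2.82 ± 0.187 for LATS1 and 1.76 ± 0.181 for NF2. FRMD6 stood at the 89.6th percentile of the tested genes and NF2 at the 40.1st. The ranges over samples of STK4 (13.1 to 17.7 FPKM), STK3 (12.5 to 14.4 FPKM) and LATS2 (11.5 to 14.3 FPKM) overlapped, as did those of MOB1A (25.9 to 32.7 FPKM) and SAV1 (23.6 to 30.1 FPKM), so the ranges do not set the order within these sets. Compared within each sample, MOB1A was always above SAV1 and STK4 always above STK3, while LATS2 was above STK3 in some samples and below it in others. The order also rests on the length used. Divided by the length of all annotated exons of the gene, MOB1A (22.9 FPKM) and FRMD6 (22.4 FPKM) changed places, and STK3, whose annotated exons (12604 bases) far exceed its main transcript (2833 bases), went from the fifth place to the eighth (3.0 FPKM), while LATS1 and NF2 kept the last places.

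**Figure D1:**
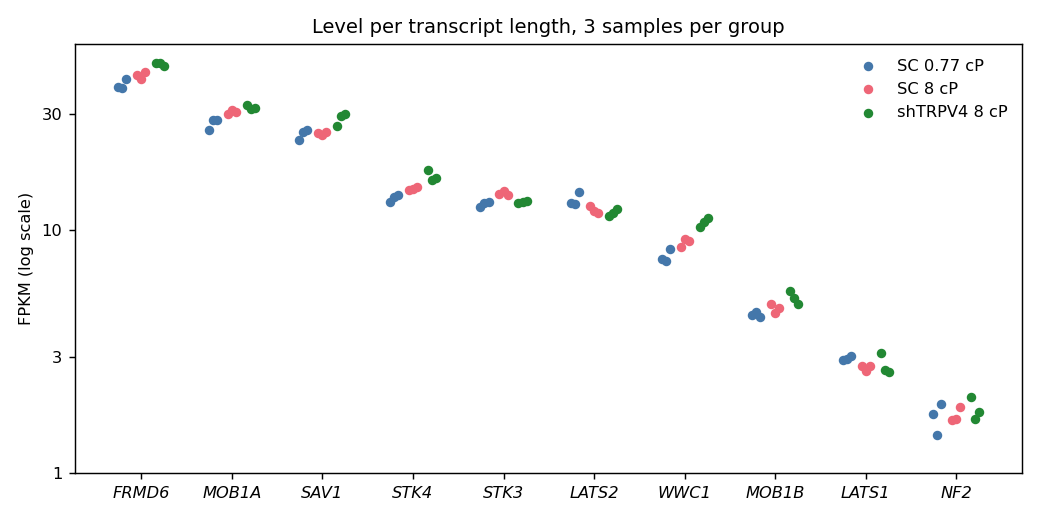
Level of each of the 10 genes per length of its main transcript (FPKM, log axis), with 1 point per sample and 3 samples in each of the 3 groups. FRMD6, MOB1A and SAV1 sit above the rest at means of 43.9, 30.1 and 26.3 FPKM, and LATS1 and NF2 are lowest at 2.82 and 1.76 FPKM.

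At 8 cP, SC cells had higher RNA for 4 of the 10 genes than at 0.77 cP, STK3, STK4, MOB1A and WWC1, by 10.1% to 14.0%, and lower RNA for 0 (edgeR's quasi-likelihood test, adjusted p under 0.05 over all genes tested). Over all tested genes 19.3% were called in this comparison, 9.57% higher and 9.69% lower. The median log2 fold change of the 10 genes was 0.10, against -0.0065 over all tested genes, and 8 were above 0. These 4 calls depended on single samples. The count fell to 0 without replicate 1 of SC at 0.77 cP, without replicate 2 of SC at 8 cP or without its replicate 3, was 1 without replicate 2 of SC at 0.77 cP, was 2 without replicate 1 of SC at 8 cP or replicate 2 of shTRPV4, and otherwise lay between 3 and 5. Calls over all tested genes fell in these fits too. They were 7.58%, 14.5% and 7.56% where no member was called, 10.3% where 1 was, and 14.7% and 16.3% where 2 were. With no filter on low counts the count of members was 2.

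In shTRPV4 cells at 8 cP, 4 of the 10 genes, STK4, SAV1, WWC1 and FRMD6, were higher than in SC cells at 8 cP, by 11.5% to 20.6%, and 0 were lower, against 20.0% of all tested genes called, 9.02% higher and 11.0% lower. Of all calls, 1647 were higher and 2002 lower, and scaled by library size only 2082 were higher and 1627 lower. The median log2 fold change of the 10 genes was 0.12, against 0.00064 over all tested genes. The count of members fell to 1 without replicate 2 of SC at 8 cP, and to 2 without its replicate 1 or without replicate 1 or 2 of shTRPV4. In these fits, in the same order, 11.7%, 12.6%, 15.8% and 13.4% of all tested genes were called. Leaving out each of the other 5 samples gave 4 or 5 members.

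The groups that lay farthest apart were shTRPV4 at 8 cP and SC at 0.77 cP. Here 7 of the 10 genes were called, with STK4, SAV1, MOB1A, MOB1B, WWC1 and FRMD6 higher by 15.7% to 37.5% and LATS2 lower. Over all tested genes 42.4% were called, 20.4% higher and 22.0% lower. The median log2 fold change of the 10 genes was 0.21, against -0.011 over all genes. The median size of change without its sign was also 0.21 for the 10 genes and 0.23 for all tested genes. All tested genes include many with fewer reads than any of the 10, so these sizes are not matched for level. Leaving out any 1 sample gave 6 to 8 calls, with 34.0% to 41.3% of all tested genes called.

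**Figure D2:**
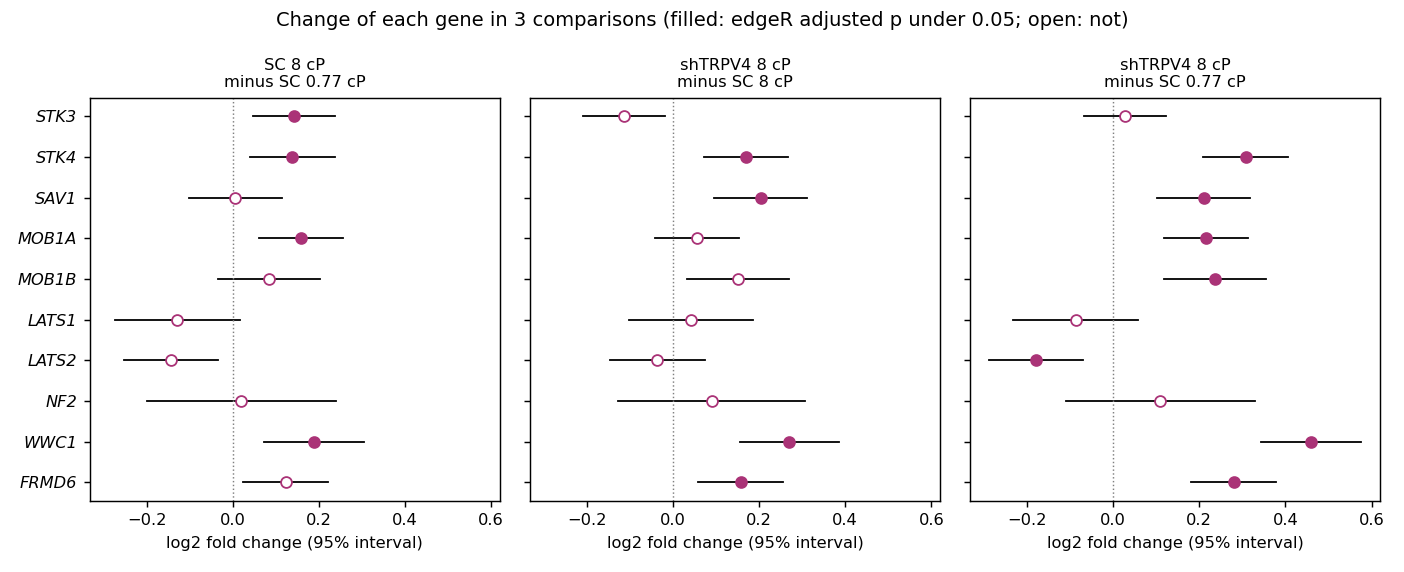
Log2 fold change of each gene with its 95% interval in the 3 comparisons, with filled points for an edgeR adjusted p under 0.05 and open points otherwise. Filled points lie right of 0 in all 3 panels except that of LATS2 against SC at 0.77 cP at -0.18, and the largest is WWC1 at 0.46 in the same panel.

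STK4 (ENSG00000101109, chromosome 20 from 44966494 to 45080021, plus strand) encodes MST1. It was at 83.1, 86.9 and 88.6 CPM in SC cells at 0.77 cP, at 93.7, 94.6 and 96.4 CPM in SC cells at 8 cP, and at 113, 102 and 105 CPM in shTRPV4 cells. The 3 groups did not overlap and rose in this order. The log2 fold change with viscosity was 0.14 (standard error 0.046, adjusted p = 0.0484), that of shTRPV4 against SC at 8 cP was 0.17 (standard error 0.046, adjusted p = 0.0177), and that of shTRPV4 against SC at 0.77 cP was 0.31 (standard error 0.046, adjusted p = 8.2e-05). The first of these stood at the threshold, since it passed in 2 of the 9 fits that left out 1 sample each (adjusted p from 0.0218 to 0.159) and not with upper quartile scaling (adjusted p = 0.0581), scaled by library size only (0.0528), with no filter (0.0659) or with the replicate block (0.0595). The second passed in 6 of the 9 (0.0154 to 0.0740) and failed without replicate 1 or 2 of SC at 8 cP or replicate 1 of shTRPV4, and the third passed in all 9.

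STK3 (ENSG00000104375, chromosome 8 from 98371228 to 98942827, minus strand), which encodes MST2, had another pattern. Its level was 35.4, 36.7 and 36.9 CPM in SC cells at 0.77 cP, 39.8, 40.9 and 39.6 CPM in SC cells at 8 cP, and 36.8, 37.0 and 37.3 CPM in shTRPV4 cells. SC cells at 8 cP were thus above both other groups with no overlap. The rise with viscosity was 0.14 on the log2 scale (standard error 0.045, adjusted p = 0.0375), passing in 3 of the 9 fits with a sample left out (adjusted p from 0.0300 to 0.125) and not with no filter on low counts (adjusted p = 0.113). The value for shTRPV4 against SC at 8 cP was -0.11 (standard error 0.045, adjusted p = 0.0871), which did not pass, and for shTRPV4 against SC at 0.77 cP it was 0.028 (adjusted p = 0.659, 95% interval of the ratio 0.954 to 1.09).

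The ratio of the MST paralogs was taken within each sample, where no scaling between samples enters. The log2 ratio of STK3 to STK4 counts was -1.23, -1.24 and -1.26 in SC cells at 0.77 cP, -1.23, -1.21 and -1.28 in SC cells at 8 cP, and -1.61, -1.47 and -1.49 in shTRPV4 cells. The 6 SC samples overlapped between viscosities, and the 3 shTRPV4 samples lay below all of them. Per length of the main transcript, STK3 made up 48.7% ± 0.245 of the MST pair with SC at 0.77 cP (SD, n = 3), 48.7% ± 0.666 with SC at 8 cP and 43.9% ± 1.31 in shTRPV4 cells. This share depends on the length used. Divided by the length of all annotated exons, STK3 was at 2.88 FPKM and STK4 at 5.20 FPKM with SC at 0.77 cP. No test was run on the ratio of STK3 to STK4.

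**Figure D3:**
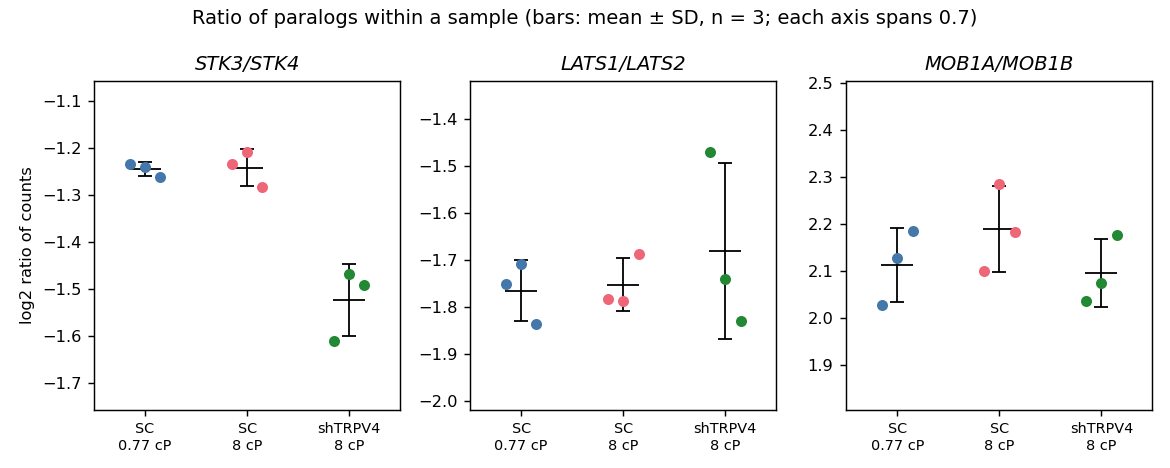
Log2 ratio of counts of the paralogs of each pair within a sample, 3 samples per group with mean and SD, each axis spanning the same range of 0.7. For STK3/STK4 the 3 shTRPV4 samples (-1.61 to -1.47) lie below the 6 SC samples (-1.28 to -1.21), and for LATS1/LATS2 and MOB1A/MOB1B the groups overlap.

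SAV1 (ENSG00000151748, chromosome 14 from 50632058 to 50668306, minus strand) encodes the scaffold that holds MST kinases in an active complex. The 6 SC samples were at 73.1, 78.6 and 79.9 CPM at 0.77 cP and 78.0, 76.2 and 78.4 CPM at 8 cP, and the 3 shTRPV4 samples at 83.4, 91.4 and 93.1 CPM. Viscosities overlapped, and every shTRPV4 sample was above every SC sample. SAV1 rose in shTRPV4 cells by 0.20 against SC at 8 cP (standard error 0.051, adjusted p = 0.0104) and by 0.21 against SC at 0.77 cP (standard error 0.051, adjusted p = 0.00352). The former passed in 7 of the 9 fits with a sample left out and not without replicate 2 of SC at 8 cP (adjusted p = 0.0627) or replicate 2 of shTRPV4 (adjusted p = 0.0520). With viscosity alone the value was 0.0060 (adjusted p = 0.951), and the 95% interval of the ratio ran from 0.932 to 1.08. A total of 1789 exon bases of SAV1 lie opposite exons of ATL1, which had 512 to 914 counts per sample against 5044 to 8420 for SAV1. The libraries were stranded, but whether strand was used in counting is not given in the sources used here.

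LATS2 (ENSG00000150457, chromosome 13 from 20973036 to 21061586, minus strand) and LATS1 (ENSG00000131023, chromosome 6 from 149658153 to 149718105, minus strand) encode the kinases that phosphorylate YAP and TAZ. LATS2 was at 72.0, 71.1 and 79.5 CPM in SC cells at 0.77 cP, 69.8, 66.7 and 65.3 CPM in SC cells at 8 cP, and 63.5, 65.3 and 67.9 CPM in shTRPV4 cells. Both groups at 8 cP overlapped with each other and lay below all samples at 0.77 cP. LATS2 fell by 0.18 in shTRPV4 cells against SC at 0.77 cP (log2 scale, standard error 0.052, adjusted p = 0.0110), and without replicate 3 of SC at 0.77 cP, the highest sample, the value was -0.12 (adjusted p = 0.0817). With viscosity in SC cells the value of LATS2 was -0.14 (standard error 0.051, adjusted p = 0.0636), just past the threshold with upper quartile scaling (adjusted p = 0.0480). With a sample left out it passed in 1 of 9 fits (adjusted p from 0.0471 to 0.290) and was as small as -0.079. Between the groups at 8 cP the value was -0.036 (adjusted p = 0.681).

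LATS1 was at 21.4, 21.7 and 22.3 CPM in SC cells at 0.77 cP and 20.3, 19.3 and 20.3 CPM in SC cells at 8 cP. The shTRPV4 samples spread from 19.1 to 22.9 CPM and covered both SC groups, with replicate 1 the highest of the 9 samples. No comparison passed, with log2 fold changes of -0.13 with viscosity (standard error 0.068, adjusted p = 0.204), 0.042 for shTRPV4 against SC at 8 cP (adjusted p = 0.723) and -0.087 for shTRPV4 against SC at 0.77 cP (adjusted p = 0.334). Without shTRPV4 replicate 1 the last of these was -0.17 (adjusted p = 0.0338). The log2 ratio of LATS1 to LATS2 counts was -1.77 ± 0.0651 with SC at 0.77 cP (SD, n = 3), -1.75 ± 0.0562 with SC at 8 cP and -1.68 ± 0.188 in shTRPV4 cells, with overlap. Per length, LATS1 made up 18.1%, 18.3% and 19.1% of the LATS pair in these groups.

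MOB1A (ENSG00000114978, chromosome 2 from 74152528 to 74178898, minus strand) and MOB1B (ENSG00000173542, chromosome 4 from 70902326 to 71022449, plus strand) encode adaptors that bind LATS and help to activate it. MOB1A was at 127, 139 and 139 CPM in SC cells at 0.77 cP, 148, 154 and 150.4 CPM in SC cells at 8 cP, and 160, 154 and 155 CPM in shTRPV4 cells. All samples at 8 cP exceeded those at 0.77 cP. The rise with viscosity was 0.16 on the log2 scale (standard error 0.046, adjusted p = 0.0245) and that of shTRPV4 against SC at 0.77 cP was 0.22 (standard error 0.046, adjusted p = 0.00138). Between the groups at 8 cP the value was 0.056 (adjusted p = 0.437). The rise with viscosity did not pass without replicate 1 of SC at 0.77 cP, the lowest sample (0.12, adjusted p = 0.106), nor without replicate 2 or 3 of SC at 8 cP (adjusted p of 0.0728 and 0.0708).

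MOB1B was at 31.1, 31.8 and 30.6 CPM in SC cells at 0.77 cP, 34.4, 31.5 and 33.1 CPM in SC cells at 8 cP, and 39.0, 36.6 and 34.4 CPM in shTRPV4 cells. It rose in shTRPV4 cells against SC at 0.77 cP by 0.24 on the log2 scale (standard error 0.056, adjusted p = 0.00296), with no overlap of samples. The steps in between were 0.085 with viscosity (standard error 0.056, adjusted p = 0.310) and 0.15 for shTRPV4 against SC at 8 cP (standard error 0.055, adjusted p = 0.0686), and the samples overlapped in the former and touched in the latter. The latter passed scaled by library size only (adjusted p = 0.0396) and without replicate 3 of shTRPV4 (0.19, adjusted p = 0.0320). MOB1B shares 199 exon bases with DCK on the same strand, a gene with 2916 to 4953 counts per sample. The ratio of MOB1A to MOB1B counts was 4.33, 4.56 and 4.27 in SC at 0.77 cP, SC at 8 cP and shTRPV4, with overlapping samples, so MOB1A stayed the main MOB1 RNA in each group.

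WWC1 (ENSG00000113645, chromosome 5 from 168291645 to 168472303, plus strand) encodes KIBRA, which binds LATS and NF2 at the cell cortex, and it showed the largest change of the 10 genes. It was at 54.4, 53.2 and 59.9 CPM in SC cells at 0.77 cP, 60.6, 65.9 and 64.7 CPM in SC cells at 8 cP, and 73.6, 76.9 and 80.2 CPM in shTRPV4 cells. The 3 groups rose in this order without overlap. The log2 fold changes were 0.19 with viscosity (standard error 0.055, adjusted p = 0.0248), 0.27 for shTRPV4 against SC at 8 cP (standard error 0.054, adjusted p = 0.00258) and 0.46 for shTRPV4 against SC at 0.77 cP (standard error 0.055, adjusted p = 9.1e-06). The last corresponds to 37.5% more RNA, with a 95% interval of the ratio from 1.27 to 1.49. Both changes of shTRPV4 cells passed in all 9 fits that left out 1 sample. The change with viscosity passed in 5 of the 9 (adjusted p from 0.00399 to 0.102) and not without replicate 1 or 2 of SC at 0.77 cP or replicate 2 or 3 of SC at 8 cP.

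FRMD6 (ENSG00000139926, chromosome 14 from 51489100 to 51730727, plus strand), a FERM-domain protein of the cell cortex related to fly Expanded, was at 187, 185 and 202 CPM in SC cells at 0.77 cP, 209, 201 and 216 CPM in SC cells at 8 cP, and 235, 235.5 and 227 CPM in shTRPV4 cells. The SC groups overlapped by 1 sample, and shTRPV4 cells were above all SC samples. FRMD6 rose in shTRPV4 cells by 0.16 against SC at 8 cP (log2 scale, standard error 0.047, adjusted p = 0.0265) and by 0.28 against SC at 0.77 cP (standard error 0.047, adjusted p = 0.00019). The former passed in 5 of 9 fits with a sample left out and not without replicate 1 or 2 of SC at 8 cP or of shTRPV4 (adjusted p up to 0.159). With viscosity the value was 0.12 (standard error 0.047, adjusted p = 0.0776), which passed with DESeq2 (adjusted p = 0.0449) and without replicate 3 of SC at 0.77 cP (0.17, adjusted p = 0.0158).

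NF2 (ENSG00000186575, chromosome 22 from 29603556 to 29698598, plus strand) had the fewest reads of the 10 genes, 548 to 1173 counts per sample. It was at 10.4, 8.54 and 11.4 CPM in SC cells at 0.77 cP, 9.84, 9.92 and 11.1 CPM in SC cells at 8 cP, and 12.3, 9.93 and 10.6 CPM in shTRPV4 cells, and all groups overlapped. The log2 fold changes were 0.020 (standard error 0.10, adjusted p = 0.918), 0.090 (adjusted p = 0.595) and 0.11 (adjusted p = 0.424) for viscosity, for shTRPV4 against SC at 8 cP and for shTRPV4 against SC at 0.77 cP. The 95% intervals of the ratio, 0.872 to 1.18 for viscosity and 0.927 to 1.26 for the last comparison, still hold changes as large as those called for STK4 or MOB1A.

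**Figure D4:**
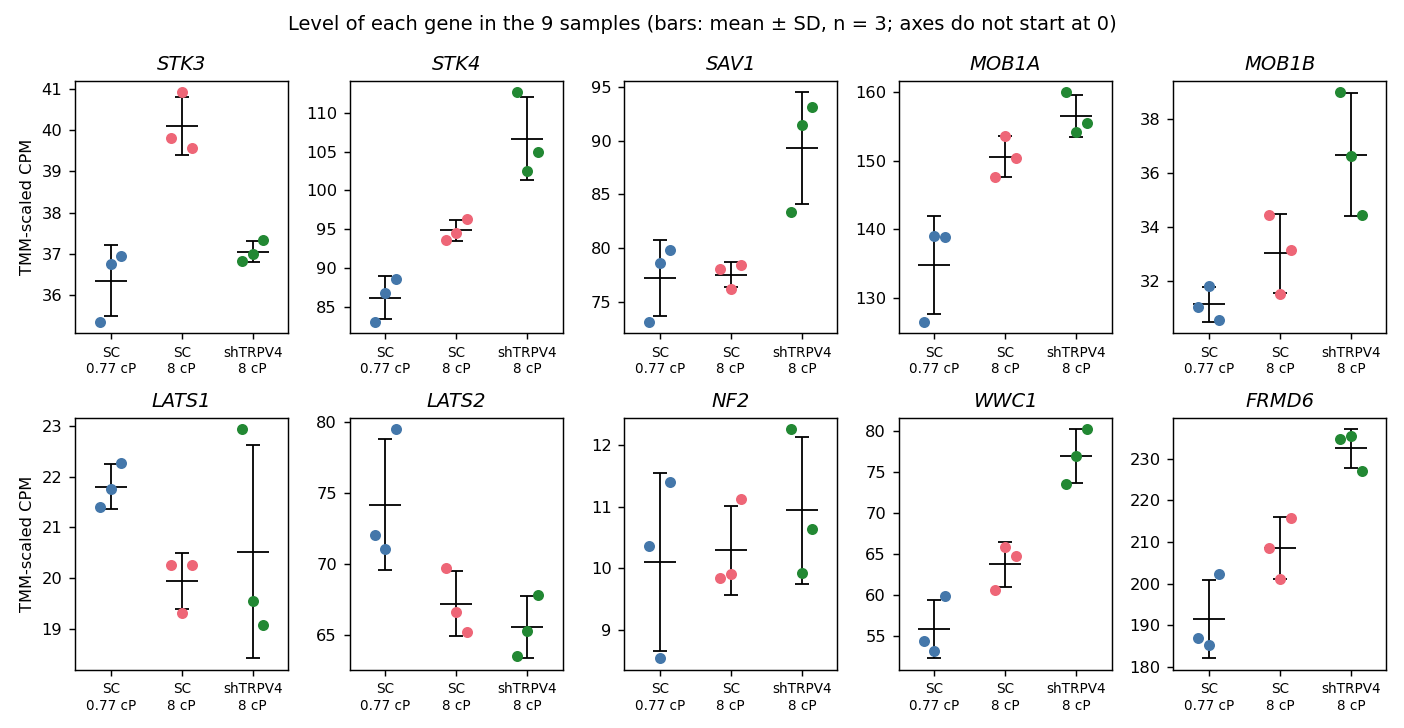
Level of each gene in TMM-scaled CPM in the 9 samples (points) with mean and SD of each group of 3, on axes that do not start at 0. STK4 and WWC1 step upward from SC at 0.77 cP through SC at 8 cP to shTRPV4, STK3 is highest in SC at 8 cP (39.6 to 40.9 CPM), SAV1 is highest in shTRPV4 cells, and LATS2 is lower in both groups at 8 cP.

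In a test for any difference among the 3 groups (edgeR quasi-likelihood F test, 42.6% of all tested genes called), 8 of the 10 genes passed. WWC1 had the smallest adjusted p (3.2e-05), followed by STK4 (0.00029), FRMD6 (0.00067), MOB1A (0.0036), SAV1 (0.0043), MOB1B (0.0085), LATS2 (0.022) and STK3 (0.036). LATS1 (adjusted p = 0.28) and NF2 (0.63), the least abundant members per length, did not pass. For the genes with the smallest p, those of most similar pattern were found by comparison with the 9452 genes that averaged 10 CPM or more, using Pearson's r of log2 CPM over the 9 samples. For WWC1 these were MAPKAPK5 (r = 0.987), ITPK1 (r = 0.986) and PSMG1 (r = 0.985), and for STK4 they were SAMD4A (r = 0.997), TATDN2 (r = 0.992) and UBE2G2 (r = 0.992). These values describe 9 samples in 3 groups, and the highest of so many correlations is high by selection.

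Around the core, 57 other genes of the pathway were listed by role, and 54 were tested. With viscosity in SC cells, 14 were called, 9 higher and 5 lower. Between shTRPV4 and SC cells at 8 cP 19 were called, 8 higher and 11 lower, and between shTRPV4 cells and SC cells at 0.77 cP 30 were, 16 higher and 14 lower. The shares called were 25.9%, 35.2% and 55.6%, against 19.3%, 20.0% and 42.4% of all tested genes, with calls in both directions. Their median log2 fold changes were 0.0064, -0.0084 and -0.017. The first count rested on single samples, being 6 without replicate 1 of SC at 0.77 cP, 5 without its replicate 2, and 7 and 6 without replicates 1 and 3 of SC at 8 cP. Over all tested genes 7.58%, 10.3%, 14.7% and 7.56% were called in these fits.

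Among the RASSF adaptors, proteins that can bind MST kinases through a shared SARAH domain, RASSF4 had the largest change among the called genes of the list in all 3 comparisons. Its mean was 54.7 CPM in SC cells at 0.77 cP, 32.3 CPM in SC cells at 8 cP and 20.9 CPM in shTRPV4 cells. It fell by 0.76 with viscosity (log2 scale, standard error 0.098, adjusted p = 0.00017), by 0.63 between shTRPV4 and SC cells at 8 cP (standard error 0.10, adjusted p = 0.00045) and by 1.38 between the outer groups (standard error 0.10, adjusted p = 7.7e-08), and all 3 calls held with any 1 sample left out. Exons of RASSF4 share 880 bases with genes on the other strand. RASSF3 was lower in shTRPV4 cells than in SC cells at 8 cP (-0.25, adjusted p = 0.0016) and than in SC cells at 0.77 cP (-0.27, adjusted p = 0.00030). RASSF1, a tumour suppressor that binds MST, rose with viscosity by 0.20 (adjusted p = 0.0212), but in only 5 of 9 fits with a sample left out. Of the 6 RASSF genes tested, 2, 2 and 2 were called in the 3 comparisons, against 19.3%, 20.0% and 42.4% of all tested genes.

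Of the other kinases that can phosphorylate LATS or MST, 1 of 9 tested was called with viscosity, TAOK3 (0.13, adjusted p = 0.0433), and MAP4K4 came next at -0.078 (adjusted p = 0.222). The call of TAOK3 was lost in 6 of 9 fits with a sample left out, with both other scalings (adjusted p of 0.0525 and 0.0507) and with no filter (0.0873). In shTRPV4 cells, TNIK rose by 0.45 (standard error 0.070, adjusted p = 0.00034) and MAP4K4 fell by 0.26 (standard error 0.043, adjusted p = 0.00050) against SC at 8 cP, and both kept their direction against SC at 0.77 cP (0.36, adjusted p = 0.00074, and -0.34, adjusted p = 1.6e-05). MAP4K4 was the more abundant in counts, with a mean of 432 CPM in shTRPV4 cells against 32.5 CPM for TNIK. The NDR kinases, close relatives of LATS, were listed together with MOB2, the MOB3 genes and the FRY genes. Of this list 0 of 8 tested were called with viscosity by edgeR's test, against 19.3% of all tested genes. The 2 with the smallest p were MOB2 (-0.14, unadjusted p = 0.0365, adjusted p = 0.122) and MOB3A (-0.11, unadjusted p = 0.0509, adjusted p = 0.154). In shTRPV4 cells against SC at 8 cP 4 of 8 were called, against 20.0% of all tested genes. STK38L, which encodes NDR2, rose by 0.44 (standard error 0.063, adjusted p = 0.00016) and MOB3A fell by 0.36 (standard error 0.051, adjusted p = 0.00019). Against SC at 0.77 cP they were at 0.48 (adjusted p = 2.3e-05) and -0.46 (adjusted p = 4.8e-06).

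The counts that follow stand against 19.3%, 20.0% and 42.4% of all tested genes called in the 3 comparisons. Of the scaffolds at junctions and the cortex, 3 of 8 tested were called with viscosity. AMOTL2, an angiomotin that binds YAP and LATS, fell by 0.38 (standard error 0.052, adjusted p = 0.00027) while its relative AMOTL1 rose by 0.18 (standard error 0.047, adjusted p = 0.0145). AMOTL1 did not pass without replicate 2 of SC at 0.77 cP (adjusted p = 0.0644) or replicate 3 of SC at 8 cP (adjusted p = 0.0505). Between shTRPV4 and SC cells at 8 cP, 4 of 8 were called, among them FAT4, an atypical cadherin, which fell by 0.39 (standard error 0.068, adjusted p = 0.00079), and PTPN14, a phosphatase that binds YAP and KIBRA, which fell by 0.22 (standard error 0.049, adjusted p = 0.0047). Against SC at 0.77 cP, 7 of 8 were called, 4 higher and 3 lower, with AMOTL2 at -0.31 (adjusted p = 0.00019) and FAT4 at -0.37 (adjusted p = 0.00047). Inhibitors were also listed, namely LIM proteins that bind LATS and subunits of STRIPAK, the phosphatase complex that acts on MST kinases. With viscosity 3 of 13 were called, all higher, including SLMAP (0.21, adjusted p = 0.0111), which links STRIPAK to MST, and WTIP (0.21, adjusted p = 0.0347). SLMAP passed in 7 of 9 fits with a sample left out and WTIP in 4 of 9. In shTRPV4 cells against SC at 8 cP 2 of 13 were called, FGFR1OP2 lower (-0.20, adjusted p = 0.0076) and STRIP2 higher (0.29, adjusted p = 0.0360). FGFR1OP2 did not pass without replicate 2 of SC at 8 cP (adjusted p = 0.0559), and STRIP2 passed in 4 of 9 fits with a sample left out and not in the fit of the 6 samples compared (adjusted p = 0.0539). Against SC at 0.77 cP 7 of 13 were, 5 higher and 2 lower, with FGFR1OP2 at -0.29 (adjusted p = 0.00016).

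The effectors below LATS and their target genes gave 5 of 10 calls with viscosity, against 19.3% of all tested genes. YAP1 (0.16, standard error 0.046, adjusted p = 0.0279) and TEAD4 (0.30, standard error 0.076, adjusted p = 0.0135) were higher at 8 cP, each in 6 of 9 fits with a sample left out. By the same edgeR test TEAD1 (5.5e-05, adjusted p = 0.999), TEAD2 (0.15, adjusted p = 0.0904) and TEAD3 (0.014, adjusted p = 0.889) were not called. The target genes CCN1 (-0.45, standard error 0.078, adjusted p = 0.0018), CCN2 (-0.27, standard error 0.056, adjusted p = 0.0045) and ANKRD1 (-0.34, standard error 0.088, adjusted p = 0.0149) were lower, the last in 6 of 9 fits. The values of the TEAD genes, and of YAP1, CCN1, CCN2 and ANKRD1 outside the comparisons where they had the smallest p of their role, were added after the data were seen. YAP1 was lost without replicate 1 of SC at 0.77 cP or replicate 1 or 3 of SC at 8 cP (adjusted p up to 0.122), TEAD4 without replicate 1 or 2 of SC at 0.77 cP or replicate 3 of SC at 8 cP (up to 0.0724), and ANKRD1 without replicate 1 or 2 of SC at 0.77 cP or replicate 1 of SC at 8 cP (up to 0.0812).

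Between shTRPV4 and SC cells at 8 cP 5 of 10 were called, 2 higher and 3 lower, against 20.0% of all tested genes. YAP1 was lower (-0.53, standard error 0.047, adjusted p = 1.7e-06) and ANKRD1 higher (0.61, standard error 0.088, adjusted p = 0.00019). CCN1 was higher (0.26, standard error 0.078, adjusted p = 0.0290), in 4 of 9 fits with a sample left out (adjusted p up to 0.126), while CCN2 was at -0.013 (adjusted p = 0.904). CCN1 was lost without any 1 replicate of SC at 8 cP and without replicate 2 or 3 of shTRPV4. Against SC at 0.77 cP 6 of 10 were called, 2 higher and 4 lower, where 42.4% of all tested genes were called. YAP1 was at -0.37 (adjusted p = 1.6e-05) and VGLL4, which competes with YAP for TEAD, at -0.40 (adjusted p = 2.3e-05). In that comparison CCN2 was lower (-0.28, adjusted p = 0.00075), CCN1 was at -0.19 (adjusted p = 0.0648) and ANKRD1 was higher (0.27, adjusted p = 0.0205), in 6 of 9 fits and not without replicate 3 of SC at 0.77 cP or replicate 2 or 3 of shTRPV4 (adjusted p up to 0.102). The target genes therefore did not share 1 direction in shTRPV4 cells.

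**Figure D5:**
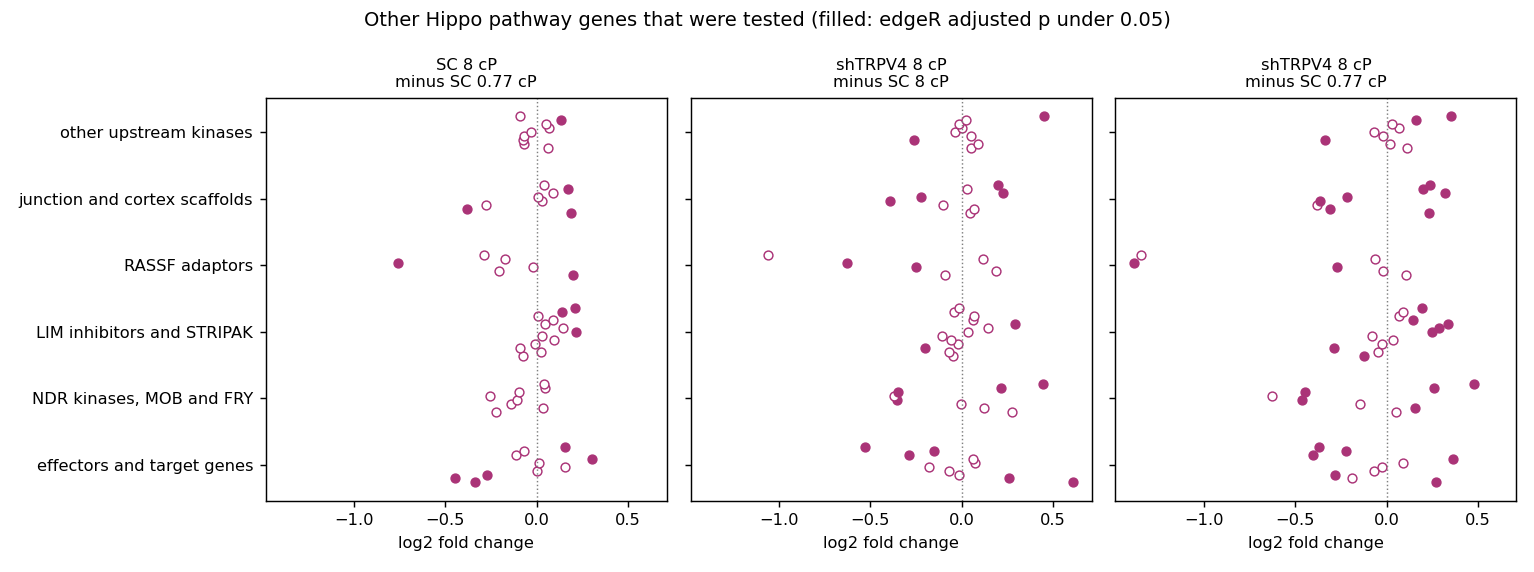
Log2 fold change of the 54 tested genes around the core, by role, in the 3 comparisons, with filled points for an edgeR adjusted p under 0.05. RASSF4 stands farthest left among the filled points in each panel (-0.76, -0.63 and -1.38), and the other filled points lie on both sides of 0.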

How the data were processed

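RNA of 9 samples was measured by RNA-seq of stranded poly(A) libraries with reads of 100 bases. The authors mapped the reads with HISAT2 2.2.1 to GRCh38.p13, totalled reads on exons with HTSeq 0.13.5 and Ensembl 104, and deposited raw counts per gene; whether strand was used is not given in the sources used here. Totals ranged from 64571681 to 103518036 counts per sample, and the common biological coefficient of variation was 0.0633. Blank lines at file ends (3 in all) name no gene and were dropped. Ensembl IDs were matched to GENCODE 44, also on GRCh38 (60463 of 60664).

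In R 4.3.3, edgeR 4.0.16 was applied with TMM scaling, filterByExpr and the quasi-likelihood test, with 1 coefficient per group over all 9 samples and Benjamini-Hochberg adjustment over 18264 genes (threshold 0.05). CPM are TMM-scaled, and FPKM divide them by the length of the main transcript. Alternatives were DESeq2 1.42.0, upper quartile scaling, library size only, no filter, at least 10 counts in every sample, the 6 samples compared, a replicate block and leaving out each sample.

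The members and lists were chosen with earlier results of these data known. Named genes are the 10 members, TRPV4, from each role the 2 partner genes with the smallest p in a comparison, and the 3 genes most like each of the 2 members with the smallest p of the F test; 1 gene that this rule names and 1 marker gene are not reported here. Samples were grouped by their labels. Replicates of a group differed beyond counting noise in every pair. Promoter sequences come from RefSeq and coding sequences from GENCODE 44.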

Additional observations from a re-analysis of the deposited data

How the results depend on the processing

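Under DESeq2, both other scalings, both other filters, the fit of 6 samples and the replicate block, 7 members were called between shTRPV4 cells and SC cells at 0.77 cP, and 4 or 5 between shTRPV4 and SC cells at 8 cP. Of all tested genes, 21.9% to 47.8% were called in the former comparison under these settings and 11.3% to 22.9% in the latter. With viscosity in SC cells the count of 4 became 2 with no filter on low counts, where 34549 genes were tested and 11.1% called. Under the other settings it lay between 3 and 5, with 19.0% to 23.1% of all tested genes called. With each sample left out in turn, the members called ranged from 0 to 5, from 1 to 5 and from 6 to 8 in the 3 comparisons, and the other pathway genes called from 5 to 16, from 14 to 19 and from 26 to 32. The share of all tested genes called ranged from 7.56% to 23.3%, from 11.7% to 20.5% and from 34.0% to 41.3%. Signs turned for values that passed no test and that, in the fit without these alternatives, were smaller in size than their standard errors. With viscosity, SAV1 was -0.0037 under upper quartile scaling and from -0.026 to 0.042 with a sample left out, TRPV4 was 0.00016 with DESeq2 and from -0.33 to 0.27, and NF2 ranged from -0.074 to 0.13. Between shTRPV4 and SC cells at 8 cP, LATS1 ranged from -0.047 to 0.092, NF2 from -0.00096 to 0.15 and CCN2 from -0.057 to 0.044, and CCN2 was 0.015 scaled by library size only. The cause was not tested.

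Replicate numbers are shared across groups, but samples with the same number did not deviate together (correlations of -0.055 to 0.090, against -0.11 to 0.11 for different numbers), so the numbers were not taken as pairs. With the replicate block, 3, 4 and 7 members and 14, 19 and 30 other pathway genes were called in the 3 comparisons. Of all tested genes, 19.0%, 19.7% and 42.3% were called with this block. The member call lost was STK4 with viscosity (adjusted p = 0.0595). In the fit without the block or the other alternatives, the smallest change called in a member was 10.1%, for STK4 with viscosity.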
